A study of Saccharomyces cerevisiae with 4 samples.

Results

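The ATG genes of Saccharomyces cerevisiae encode the core machinery of autophagy, in which cytoplasm, organelles or selected proteins are enclosed in a double membrane and delivered to the vacuole for breakdown. The members described here are the rows of the deposited table whose symbol is ATG followed only by digits, which gave 34 of 7126 features. All 34 passed the filter on low values (at least 1 CPM in 2 or more libraries), as did 6296 features in all. Autophagy proteins that the table lists under another symbol, such as VPS30 and SNX4, are no members and are given near the end.

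The manganese-adapted group has 2 libraries, from cells cultivated for 120 h in YPD (a rich glucose medium) to which MnSO4 was added to 2.5 mM. The control group has 2 libraries, from cells cultivated for 18 h in YPD with an estimated 0.0036 mM Mn2+. Both groups are the strain CRY, genotype MATa, delta(ade2 his3 leu2 trp1 ura3), grown to stationary phase, with total RNA taken into a TruSeq RNA preparation. Culture time differs with manganese in every library, so effects of time and of manganese cannot be told apart. Whether replicates came from separate cultures is not stated, and the p-values here cover only how far these libraries spread, which could be technical.

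Autophagy starts when the Atg1 kinase complex is released from inhibition by TORC1, the nutrient-sensing kinase complex. Vesicles that carry Atg9 seed a membrane, a phosphatidylinositol 3-kinase complex marks it, and 2 ubiquitin-like conjugation systems attach the protein Atg8 to its lipid so that it can expand and take up cargo. In yeast autophagy is known for its induction by starvation, and receptors that bind Atg8 or Atg11 select mitochondria, peroxisomes, endoplasmic reticulum or vacuolar enzymes as cargo.

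The libraries held 12307870 to 14184276 reads, recovered from the deposited CPM. CPM here are reads scaled to the library size times a factor, which was 0.9868 to 1.029. A floor of 3 reads was 0.212 to 0.237 CPM, which covers counting error only. Replicates differed by more than sampling noise (chi-square per gene 10.7 in manganese-adapted and 23.4 in control libraries). The 6 markers of a cells summed to 270 and 276 CPM in manganese-adapted libraries, against 263 and 289 CPM in control libraries. Of these, MFA1, MFA2 and STE2 were lower in both manganese-adapted libraries, BAR1 and STE6 were higher, and ASG7 overlapped between the groups. The 6 markers of alpha cells summed to 138 and 149 CPM in manganese-adapted libraries, against 69.5 and 66.7 CPM in control libraries, with MF(ALPHA)2 going the other way and MATALPHA1 and HMLALPHA1 at 0 in every library. All 5 genes that the genotype label gives as deleted had reads in all 4 libraries (37.0 to 830 CPM), which goes against a reading of the label as full deletions. The part of these markers in the results below was not tested.

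In manganese-adapted cells the ATG genes did not move as 1 block. By limma with Benjamini-Hochberg adjustment over all 6296 tested features, 15 of 34 members rose, 5 fell and 14 did not pass at 0.05. Among all tested features 33.6% rose, 34.9% fell and 68.5% changed in either direction, while 44.1% of the members rose, 14.7% fell and 58.8% changed, so the share of ATG genes that changed lay below that of all tested features. With edgeR's quasi-likelihood test 15 members rose and 5 fell (33.8% and 34.7% of all tested features, 68.5% together), and with DESeq2 14 rose and 4 fell (30.8% and 31.4%, 62.2% together). The 5 members with a log2 fold change of at least 1 were ATG15, ATG23, ATG1, ATG3 and ATG39, which is 14.7% of the members, while 8.28% of all tested features rose that far. No member fell by that much, against 7.21% of all tested features. The median log2 fold change (the manganese-adapted mean less the control mean of log2(CPM + 1)) was 0.12 over the members and -0.01 over all tested features. That median went to 0.194 without control replicate 1 and to 0.041 without manganese-adapted replicate 2.

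Summed over the 34 members, the level was 4277 and 4340 CPM in manganese-adapted libraries, against 3490 and 3249 CPM in control libraries. The manganese-adapted sums lie above both control sums. These values are scaled shares of a library, so a change in total mRNA would not be seen. Fewer cells with a transcript cannot be told apart from less of it per cell. In 23 members the groups did not overlap, 17 with both manganese-adapted libraries higher and 6 with both lower, while the groups of 85.7% of all tested features did not overlap. Control replicate 1 lay above control replicate 2 in 27 of 34 members (median difference 0.08 on the log2 scale, control 1 minus control 2). Over all 6296 tested features it lay above in 3120. Of the manganese-adapted libraries, replicate 1 was above replicate 2 in 11 of 34 (median difference -0.06, replicate 1 minus 2), and in 3191 of all 6296 tested features.

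**Figure D1:**
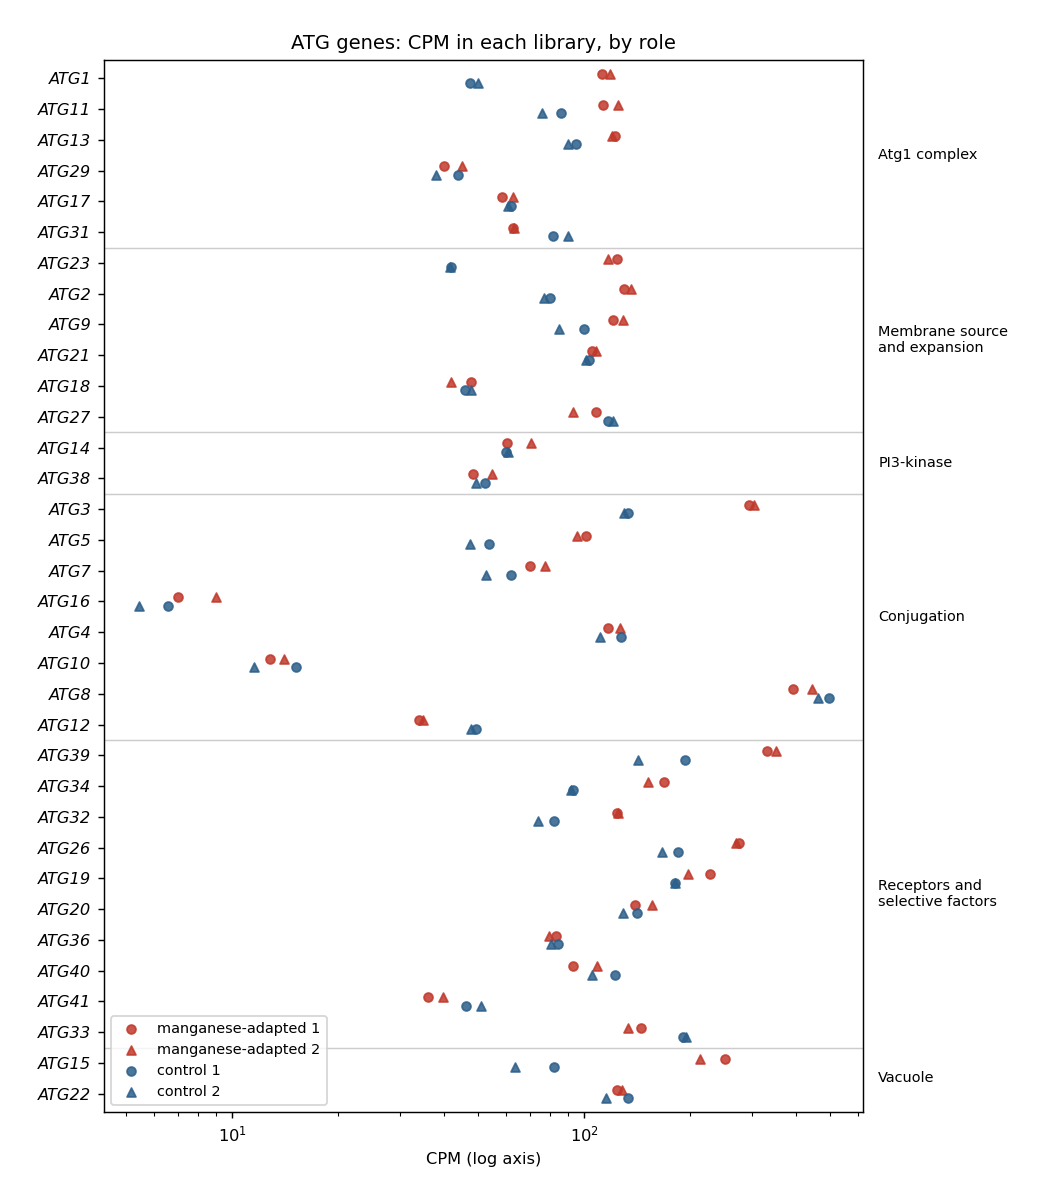
CPM (log axis) of each of the 34 ATG genes in the 4 libraries, grouped by role; red symbols are the manganese-adapted libraries, blue symbols the control libraries, circles replicate 1 and triangles replicate 2. ATG15, ATG23, ATG1, ATG3 and ATG39 have the highest fold changes between group means, and ATG16 and ATG10 lie lowest.

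Of the 6 members of the Atg1 complex and its scaffolds, 3 rose, 1 fell and 2 did not pass. That is 50% higher and 16.7% lower (66.7% together). Among all tested features 33.6% rose and 34.9% fell (68.5% together). ATG1 (YGL180W, R64 chromosome VII, 160065 to 162758, plus strand, 1 coding exon) encodes the protein kinase that starts autophagosome formation. It had 112 and 118 CPM in manganese-adapted libraries, against 47.4 and 50 CPM in control libraries. Both manganese-adapted values lie far above both control values, a log2 fold change of 1.22 ± 0.09 (SE) with adjusted p 1.01e-06 in limma.

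ATG11, a scaffold protein of selective autophagy, had 113 and 125 CPM in manganese-adapted libraries, against 85.6 and 75.7 CPM in control libraries. It rose by 0.56 ± 0.10 on the log2 scale (limma adjusted p 0.000411). ATG13, the regulatory subunit that TORC1 phosphorylates, averaged 121 ± 0.979 CPM in manganese-adapted and 92.3 ± 3.13 CPM in control libraries (SD, n = 2 each), a rise of 0.39 (limma adjusted p 0.00173). The ATG11 and ATG13 calls were lost once the trend with coding length was removed (0.183 and 0.078).

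The scaffold of the complex in bulk autophagy is built of Atg17, Atg29 and Atg31, and of its genes only ATG31 passed. It fell to 63.0 ± 0.388 CPM in manganese-adapted libraries, against 85.8 ± 6.13 CPM in control libraries (SD, n = 2 each), a log2 fold change of -0.44 (limma adjusted p 0.00138), which did not pass with the length trend removed (-0.172, adjusted p 0.11). ATG17 did not pass, at 60.5 ± 3.02 CPM in manganese-adapted and 61.4 ± 1.02 CPM in control libraries, and the 95% interval of its log2 fold change ran from -0.22 to 0.18. ATG29 did not pass either (0.06, interval -0.19 to 0.30). ATG29 is the 1 member whose annotated span overlaps another R64 gene, SET6, by 24 bases on the opposite strand, and no source used here states whether strand entered the counting.

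Among the 6 genes of membrane supply and expansion, again 3 rose, 1 fell and 2 did not pass. The share called was thus again 66.7%, near the 68.5% of all tested features. ATG23 (YLR431C, chromosome XII, 1000342 to 1001703, minus strand) encodes a peripheral membrane protein needed to move Atg9 vesicles. It had 124 and 117 CPM in manganese-adapted libraries, against 41.8 and 41.6 CPM in control libraries, with no overlap between groups. Its log2 fold change of 1.51 ± 0.09 (limma adjusted p 2.48e-07) was the second highest of the 34, and it was 1.365 with the length trend removed.

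ATG27, a membrane protein that also acts in Atg9 transport, fell slightly. It averaged 101 ± 11.0 CPM in manganese-adapted and 119 ± 2.32 CPM in control libraries (SD, n = 2 each), a log2 fold change of -0.24 (limma adjusted p 0.0406). A fit with 1 library left out takes its spread from the other group's pair alone and assumes that the lone library varies alike. ATG27 no longer passed when control replicate 2 was left out (-0.223, adjusted p 0.0517) or manganese-adapted replicate 2 (-0.132, adjusted p 0.314), with scaling by library size only (adjusted p 0.053), in DESeq2 (adjusted p 0.0908) and with the length trend removed (adjusted p 0.21).

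ATG2 encodes the lipid transfer protein at the edge of the growing membrane. It had 130 and 136 CPM in manganese-adapted libraries, against 80.0 and 76.8 CPM in control libraries, a rise of 0.76 ± 0.08 (limma adjusted p 1.76e-05) that came to 0.367 with the length trend removed. ATG9, the lipid scramblase carried by small vesicles, had 121 and 129 CPM in manganese-adapted libraries, against 100 and 84.8 CPM in control libraries. It rose by 0.43 ± 0.10 (limma adjusted p 0.00264), and it did not pass when manganese-adapted replicate 2 was left out (0.383, adjusted p 0.0617) or with the length trend removed (0.076, adjusted p 0.52).

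Atg18 and Atg21 are propeller proteins that bind the lipid made by the phosphatidylinositol 3-kinase. ATG18 averaged 44.7 ± 4.21 CPM in manganese-adapted and 46.7 ± 1.24 CPM in control libraries, and ATG21 averaged 106 ± 2.10 CPM in manganese-adapted and 102 ± 1.44 CPM in control libraries (SD, n = 2 each). Neither passed, and the 95% intervals of the log2 fold change ran from -0.29 to 0.16 and from -0.12 to 0.24. With the length trend removed ATG18 passed as lower (-0.253, adjusted p 0.0477). Both subunits of the phosphatidylinositol 3-kinase complex that carry an ATG symbol also did not pass. ATG14, the subunit that directs the complex to autophagy, had an interval of -0.11 to 0.33, and ATG38, which holds its subunits together and is the 1 member with 2 coding exons, of -0.20 to 0.25.

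**Figure D2:**
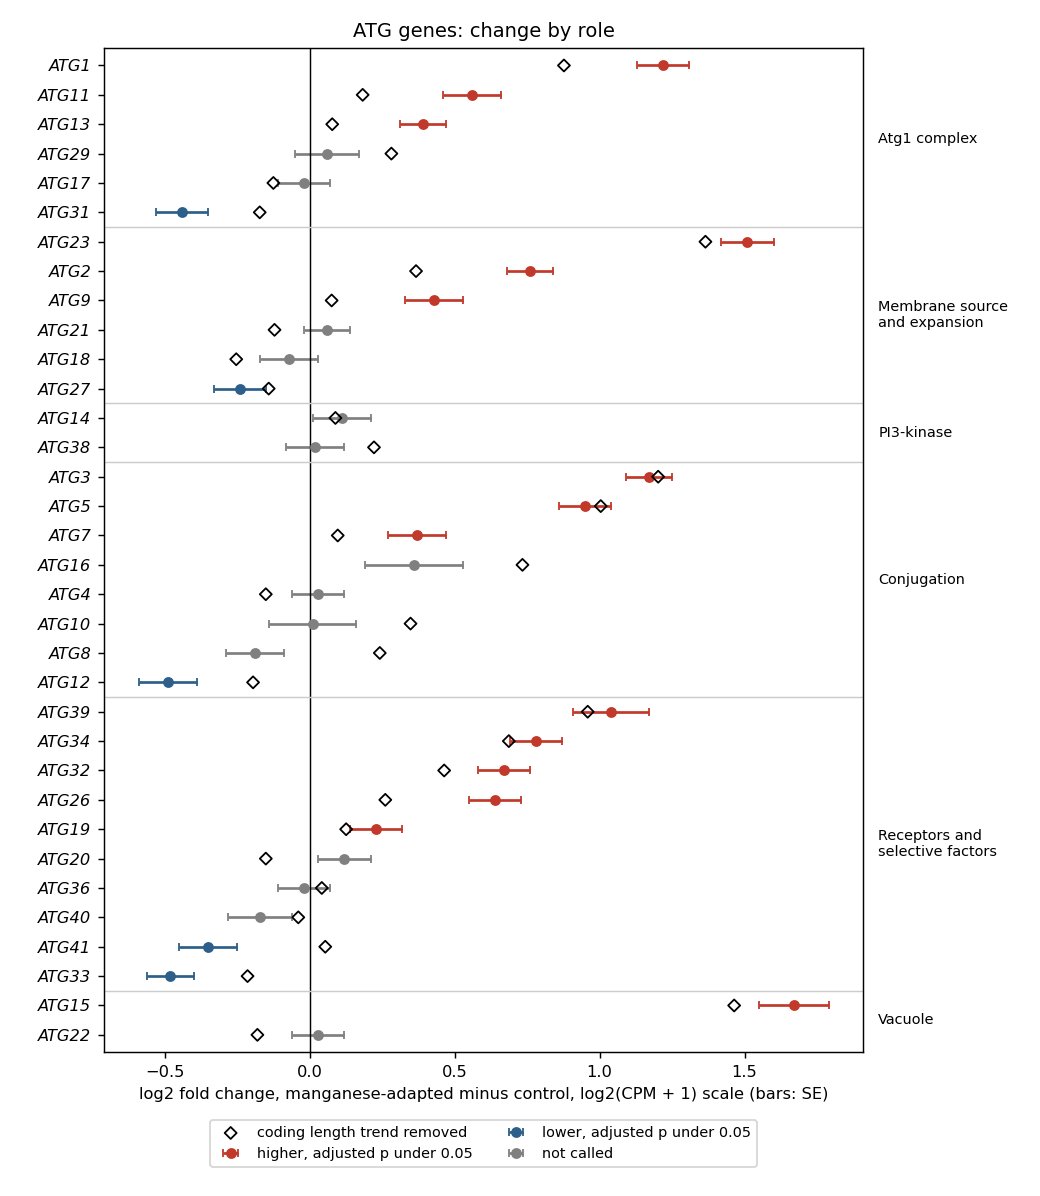
Log2 fold change of each ATG gene (manganese-adapted mean less control mean of log2(CPM + 1)), by role; filled circles with bars are limma estimates ± SE, red higher, blue lower and grey not called, and open diamonds are the values with the coding length trend removed. Within each role except the PI3-kinase subunits at least 1 gene rose. ATG31, ATG27, ATG12, ATG41 and ATG33 fell, and some genes that were not called also lie below 0.

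The conjugation systems held the most abundant and the least abundant ATG transcript. Per kb of coding length ATG8 ranked first of the 34 in both groups, at 1184 ± 103 CPM per kb in manganese-adapted and 1353 ± 65.1 CPM per kb in control libraries (SD, n = 2 each), and ATG16 ranked last, at 17.7 ± 3.11 CPM per kb in manganese-adapted and 13.2 ± 1.83 CPM per kb in control libraries. ATG16 rested on 95 and 114 reads in manganese-adapted libraries, against 93 and 72 reads in control libraries.

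ATG8 (YBL078C, chromosome II, 80378 to 80731, minus strand) encodes the ubiquitin-like protein that is attached to phosphatidylethanolamine on the autophagosome. It had 393 and 445 CPM in manganese-adapted libraries, against 495 and 463 CPM in control libraries. Both manganese-adapted values lie below both control values, but the gene did not pass (log2 fold change -0.19 ± 0.10, limma adjusted p 0.105, 95% interval -0.42 to 0.03). With the length trend removed it was 0.242 with adjusted p 0.0609, the opposite sign, and it passed under none of the 16 alternatives.

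Of the enzymes that act on Atg8, ATG3 and ATG7 rose and ATG4 did not pass; the differences between them were not tested. ATG3 (YNR007C, chromosome XIV, 639182 to 640114, minus strand), the E2-like enzyme that joins Atg8 to its lipid, had 293 and 303 CPM in manganese-adapted libraries, against 133 and 130 CPM in control libraries. The groups lie far apart relative to their spread, a log2 fold change of 1.17 ± 0.08 (limma adjusted p 8.21e-07), and per kb ATG3 ranked 2 of the 34 in manganese-adapted and 7 in control libraries. ATG7, the E1-like enzyme of both systems, averaged 73.8 ± 5.22 CPM in manganese-adapted and 57.2 ± 6.51 CPM in control libraries (SD, n = 2 each), a rise of 0.37 (limma adjusted p 0.00958) that did not pass when manganese-adapted replicate 2 was left out (0.294, adjusted p 0.124) or with the length trend removed (0.097). ATG4, the protease that trims and releases Atg8, did not pass, with an interval of -0.18 to 0.24.

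The second system joins Atg12 to Atg5. ATG5 had 101 and 95.4 CPM in manganese-adapted libraries, against 53.6 and 47.4 CPM in control libraries, a rise of 0.95 ± 0.09 (limma adjusted p 9.18e-06). ATG12 fell to 34.3 ± 0.678 CPM in manganese-adapted libraries, against 48.4 ± 1.16 CPM in control libraries (SD, n = 2 each), a log2 fold change of -0.49 (limma adjusted p 0.00101) that came to -0.195 with adjusted p 0.0842 once the length trend was removed. ATG10, the E2-like enzyme for Atg12, was at 13.4 ± 0.859 CPM in manganese-adapted and 13.4 ± 2.63 CPM in control libraries, with an interval of -0.32 to 0.34. ATG16, which dimerises the conjugate, averaged 8.0 ± 1.41 CPM in manganese-adapted and 6.0 ± 0.83 CPM in control libraries (adjusted p 0.0815 in limma), and it passed as higher with the length trend removed (0.734, adjusted p 0.00269). Without control replicate 1 its log2 fold change was 0.482 with adjusted p 0.0392, on the spread of the manganese-adapted pair alone.

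A group of 10 members was taken as receptors and factors of selective autophagy, and it also holds ATG41, whose protein acts with Atg9. Of these 10, 5 rose, 2 fell and 3 did not pass. That is 50% higher and 20% lower (70% together), where 33.6% of all tested features rose and 34.9% fell (68.5% together). ATG39 (YLR312C, chromosome XII, 757637 to 758833, minus strand) encodes the receptor for the nuclear envelope and perinuclear endoplasmic reticulum. It had 331 and 351 CPM in manganese-adapted libraries, against 193 and 142 CPM in control libraries. The control libraries differ more from each other than the manganese-adapted ones, and the groups do not overlap (log2 fold change 1.04 ± 0.13, limma adjusted p 3.69e-05; 0.822 to 1.259 over the alternatives). ATG40, the receptor for cortical and cytoplasmic endoplasmic reticulum, averaged 101 ± 11.6 CPM in manganese-adapted and 114 ± 12.2 CPM in control libraries (SD, n = 2 each) and did not pass (interval -0.41 to 0.06), though without control replicate 2 its log2 fold change was -0.280 with adjusted p 0.013, on the spread of the manganese-adapted pair alone.

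Atg34 and Atg19 are related receptors that bring alpha-mannosidase to the vacuole, and Atg19 is also the receptor of aminopeptidase 1. Their genes are neighbours on chromosome XV, on the plus strand, with 1774 bases and no other annotated protein-coding gene between them. ATG34 had 168 and 152 CPM in manganese-adapted libraries, against 92.9 and 91.8 CPM in control libraries, a rise of 0.78 ± 0.09 (limma adjusted p 1.83e-05). ATG19 averaged 213 ± 21.5 CPM in manganese-adapted and 181 ± 0.164 CPM in control libraries (SD, n = 2 each), a rise of 0.23 (limma adjusted p 0.0481). ATG19 no longer passed when manganese-adapted replicate 1 was left out (0.123, adjusted p 0.342), in DESeq2 (adjusted p 0.0645), with a pseudocount of 10 CPM (adjusted p 0.0507), with the filter of 10 CPM (adjusted p 0.0516) and with the length trend removed (adjusted p 0.249). ATG19 is also the 1 member whose call differs in the authors' deposited table, which gives it a false discovery rate of 0.0807; that table has 14 members higher and 5 lower at 0.05, where 29.1% of all 7126 features are higher and 30% lower (59.2% together). No stretch of 50 bases in the span of any member occurs elsewhere in the R64 genome, so reads of such length are not shared between ATG19 and ATG34 or any other pair.

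The mitophagy genes moved in opposite directions. ATG32, the mitochondrial outer membrane receptor, had 124 and 125 CPM in manganese-adapted libraries, against 82.0 and 73.8 CPM in control libraries, a rise of 0.67 ± 0.09 (limma adjusted p 5.97e-05). ATG33, an outer membrane protein known to act in mitophagy of stationary cells, fell to 139 ± 8.53 CPM in manganese-adapted libraries, against 193 ± 2.98 CPM in control libraries (SD, n = 2 each), a log2 fold change of -0.48 (limma adjusted p 0.000501). It is the 1 fall that passed under all 16 alternatives, at -0.540 to -0.214.

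ATG26, a sterol glucosyltransferase that takes part in the autophagy of peroxisomes in Pichia pastoris, had 276 and 270 CPM in manganese-adapted libraries, against 185 and 166 CPM in control libraries. It rose by 0.64 ± 0.09 (limma adjusted p 8.32e-05) and by 0.261 with the length trend removed. ATG36, the receptor for peroxisomes, did not pass (interval -0.21 to 0.17), nor did the sorting nexin gene ATG20 (interval -0.08 to 0.33). ATG41, whose protein acts with Atg9, fell to 37.8 ± 2.57 CPM in manganese-adapted libraries, against 48.4 ± 3.37 CPM in control libraries (SD, n = 2 each), a log2 fold change of -0.35 (limma adjusted p 0.0113). ATG41 no longer passed when control replicate 2 (-0.278, adjusted p 0.05) or manganese-adapted replicate 1 (-0.280, adjusted p 0.111) was left out, and with the length trend removed the value was 0.054 (adjusted p 0.646).

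At the vacuolar end of the pathway, ATG15 (YCR068W, chromosome III, 237214 to 238776, plus strand) showed the largest change of the 34 members. It encodes the lipase that breaks open autophagic bodies. It had 251 and 213 CPM in manganese-adapted libraries, against 82.1 and 63.4 CPM in control libraries, so the lowest manganese-adapted value is well above the highest control value. The CPM ratio was 3.19 and the log2 fold change 1.67 ± 0.12 (limma adjusted p 1.39e-06; 1.464 to 1.849 over the alternatives). ATG22, which exports amino acids from the vacuole, was at 126 ± 3.04 CPM in manganese-adapted and 124 ± 12.5 CPM in control libraries (SD, n = 2 each) and did not pass (interval -0.18 to 0.23).

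Because several partners moved unequally, their ratio was taken per kb of coding length within each library, for 9 pairs chosen after the values were seen, with the gene of the higher fold change on top, so that the direction is fixed by the choice. A ratio within a library does not depend on its scaling, but it does carry the trend with coding length described next. ATG5 over ATG12 was 1.89 and 1.74 in manganese-adapted libraries, against 0.69 and 0.63 in control libraries. ATG3 over ATG8 was 0.28 and 0.26 in manganese-adapted libraries, against 0.10 and 0.11 in control libraries. Per kb the order of ATG5 and ATG12 is thus turned between the groups, while ATG8 stays above ATG3 in all 4 libraries. In CPM not divided by length, control libraries overlapped, at 53.6 and 47.4 for ATG5 and 49.2 and 47.5 for ATG12. ATG23 over ATG27 was 0.69 and 0.75 in manganese-adapted libraries and 0.21 in each control library. ATG39 over ATG40 was 2.30 and 2.07 in manganese-adapted libraries, against 1.01 and 0.87 in control libraries. The narrowest of the 9 was ATG17 over ATG31, at 0.44 and 0.47 in manganese-adapted libraries, against 0.36 and 0.32 in control libraries. With the length trend removed the log2 fold changes of ATG17 and ATG31 were -0.125 and -0.172, so little of that shift was left. With 2 libraries in each group an exact permutation test could not go below p = 0.333, so no test was made of these ratios.

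**Figure D3:**
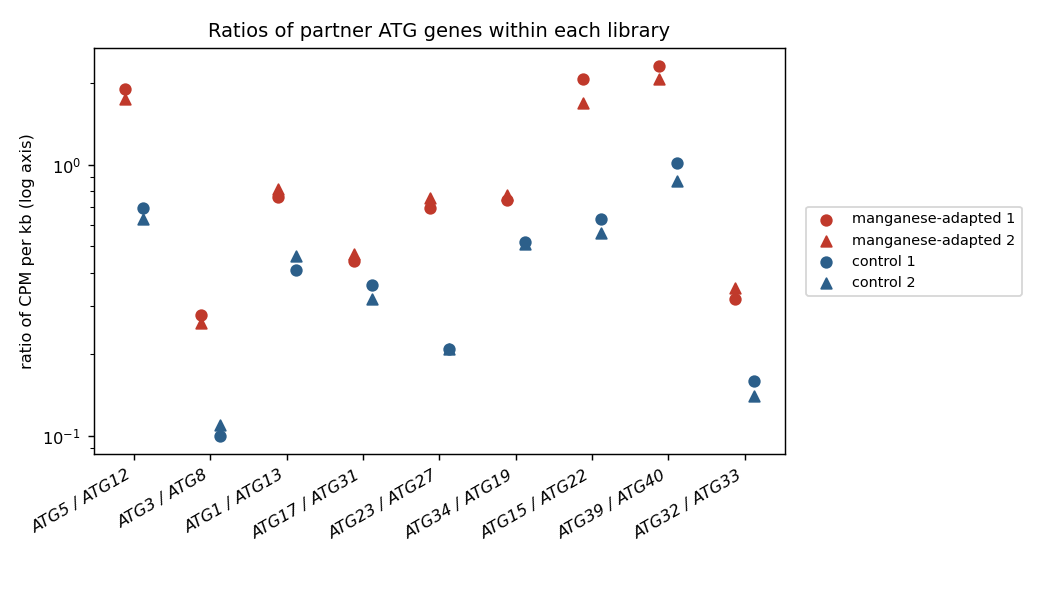
Ratio of CPM per kb of coding length (log axis) for 9 pairs of ATG genes, with 1 point per library. Red symbols are the manganese-adapted libraries and blue symbols the control libraries. The gene of the higher fold change was put on top in each pair, which fixes the direction. ATG5 over ATG12 and ATG15 over ATG22 cross 1 between the groups, while ATG39 over ATG40 was 1.01 and 0.87 in control libraries.

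Change in these libraries went with coding length, over all genes and over the ATG genes. Of the 14 members with a coding length under 1000 bp, 2 rose and 5 fell (median log2 fold change -0.09), where 20.4% of all 2297 tested genes of that length rose and 54.4% fell (median -0.32). Of the 14 members of 1000 to 2000 bp, 7 rose and none fell (limma; median 0.17), where 38.5% of all 2187 such genes rose and 26.2% fell (median 0.09). All 6 members of 2000 bp or longer rose (ATG1, ATG2, ATG9, ATG11, ATG13 and ATG26; median 0.60), where 54.6% of all 1285 such genes rose and 14.2% fell (median 0.28). Every ATG gene that fell is therefore shorter than 1000 bp.

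With a loess curve on coding length subtracted, 12 members rose and 2 fell, where 28.1% of all tested features rose and 38.0% fell (66.1% together). The step also moved the median log2 fold change of all tested features from -0.009 to -0.088. Features without a coding length were left unchanged. The 10 largest rises stayed called, in an order that differed (ATG15 at 1.464, ATG23 at 1.365, ATG3 at 1.202, ATG5 at 1.004, ATG39 at 0.959, ATG1 at 0.877, ATG34 at 0.687, ATG32 at 0.464, ATG2 at 0.367 and ATG26 at 0.261), and ATG16 and ATG29 passed in addition. The falls were ATG33 (-0.214, adjusted p 0.0458 in limma) and ATG18. The source of the length trend was not tested.

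**Figure D4:**
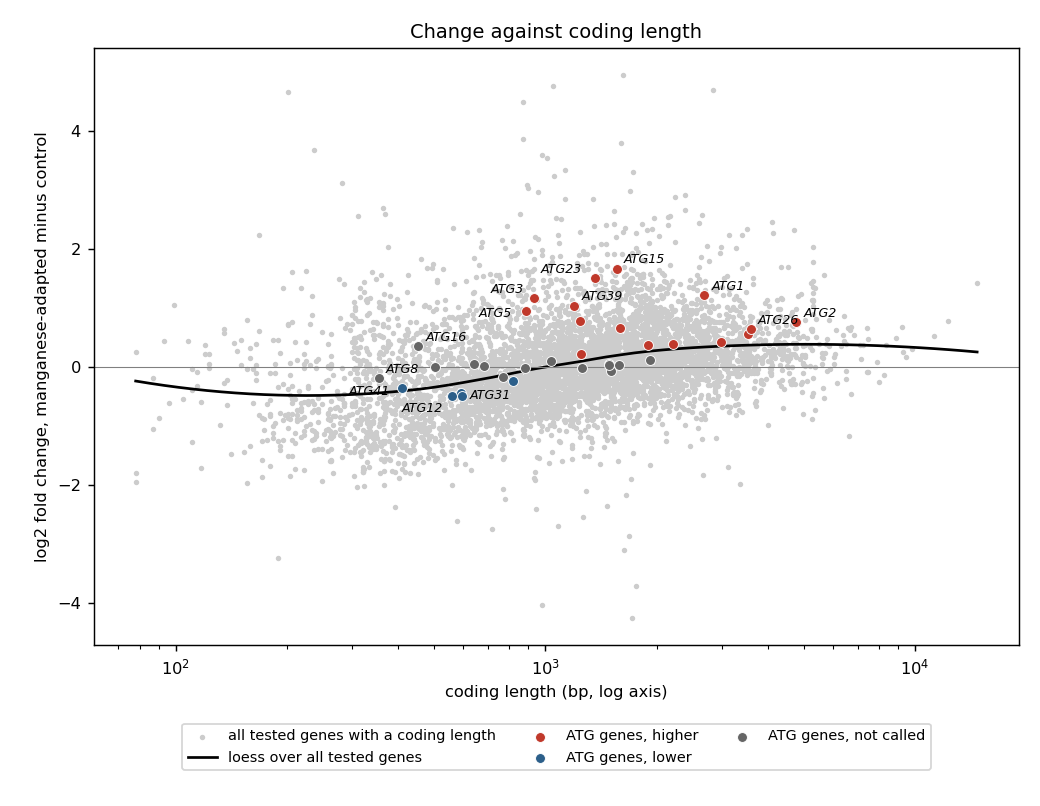
Log2 fold change, manganese-adapted minus control, against coding length (bp, log axis) for all tested genes with a coding length (grey), with a loess curve (black) and the ATG genes in red (higher), blue (lower) and dark grey (not called). The curve lies below 0 for short genes and above 0 for long ones; ATG15, ATG23, ATG3, ATG5, ATG39 and ATG1 lie well above it, and ATG12, ATG31 and ATG41 lie close to it.

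Regulators of ATG transcription, direct or indirect, were followed as a list of 14 genes, of which 8 rose, 4 fell and 2 did not pass. That is 57.1% higher and 28.6% lower, where 33.6% of all tested features rose and 34.9% fell. With the length trend removed 6 of the 14 rose and 4 fell, where 28.1% of all tested features rose and 38.0% fell. Among the largest changes, UME6, the DNA-binding subunit of a repressor of ATG8, had 115 and 110 CPM in manganese-adapted libraries, against 43.0 and 43.3 CPM in control libraries (log2 fold change 1.36, limma adjusted p 4.59e-07). RIM15, a kinase of the response to nutrient loss, rose by 1.03 (0.644 with the length trend removed) and SPT10, a chromatin regulator, by 0.92. MSN4, an activator of stress genes, fell to 115 and 111 CPM in manganese-adapted libraries, against 213 and 222 CPM in control libraries (log2 fold change -0.94, limma adjusted p 3.53e-06). Without manganese-adapted replicate 2 fewer genes of the list fell, and no share of all tested features was taken for that fit.

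Motifs known to be bound by such factors were then counted, with motifs chosen while the values above were known. In the 300 bases before each coding start of R64, a window that can run into a neighbouring gene, GATAAG, the core of the GATA factor site bound by Gln3 and Gat1, was present on either strand before 12 of 34 members (35.3%), where 14.7% of 6001 windows of that length held it. AGGGG, the stress response element bound by Msn2 and Msn4, was before 10 members (29.4%, against 22.2% of all). GGCGGC, the core of the URS1 site of Ume6, was before 2 members, ATG8 and ATG19 (5.88%, against 5.20% of all). TGACTC, the core bound by Gcn4, was before 4 members (11.8%, against 7.77% of all). None of the 4 motifs contains another, and both strands were searched.

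ATG8 is the only member with all 4 motifs in its window, and it is shown because it holds them without a called change. The stretch runs from 150 to 51 bases before its start codon (R64, chrII:80782-80881, minus strand), 5′ to 3′ along the gene, with matches in capitals. It holds 2 overlapping copies of the Ume6 core, 2 copies of the stress response element and the GATA core.
ATG8: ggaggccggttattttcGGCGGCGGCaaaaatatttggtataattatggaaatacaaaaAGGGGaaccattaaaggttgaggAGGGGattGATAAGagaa

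Among the 5 members with a log2 fold change of at least 1, only ATG15 and ATG39 held any of the 4 motifs. Windows of 30 bases around their matches are shown with windows of the related receptor genes ATG19 and ATG34, for comparison with ATG8, each 5′ to 3′ along its gene with the match in capitals. A match can be the reverse complement of the letters above. They lie at chrIII:237100-237129 (plus strand) for ATG15, chrXII:759067-759096 and chrXII:759087-759116 (minus strand) for ATG39, chrXV:168672-168701 (plus strand) for ATG19 and chrXV:165514-165543 (plus strand) for ATG34.
ATG15, GATA core: gtcaaccttttgGATAAGtcaaagaaagta
ATG39, GATA core: gcgcgacagctgCTTATCaaggtacctgga
ATG39, stress response element: cattttgcggtaaCCCCTttgcgcgacagc
ATG19, Ume6 core: cgaggtaattgcGGCGGCacttgcttcagt
ATG34, stress response element: aatggcacacgcaCCCCTaaagtaggtggg

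By call, GATAAG was before 5 of 15 members that rose, 1 of 5 that fell and 6 of 14 that did not pass. AGGGG was before 6 of 15 that rose, 0 of 5 that fell and 4 of 14 that did not pass, and all 4 members with TGACTC (ATG4, ATG8, ATG21 and ATG29) did not pass. These counts describe letters, not bound sites, and were not tested. Of the transcripts of the factors themselves, GLN3 rose by 0.77 (0.466 with the length trend removed) and GCN4 did not pass (limma adjusted p 0.179). GAT1 had a log2 fold change of -0.85 (-1.039 with the length trend removed). MSN4 had -0.94 (-1.207 with the length trend removed), while MSN2 did not pass (0.20, limma adjusted p 0.0551).

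Autophagy factors that the table lists under another symbol made up 20 genes, of which 5 rose, 6 fell and 9 did not pass. That is 25% higher and 30% lower, both below the 33.6% and 34.9% of all tested features. The widest change was in YPT7, the Rab protein of vacuolar fusion, with 97.4 and 96.9 CPM in manganese-adapted libraries, against 216 CPM in each control library (log2 fold change -1.15, limma adjusted p 8.46e-07). HSV2, a relative of ATG18 and ATG21, rose by 0.54, and CUE5, a receptor for protein aggregates, rose by 0.39. YKT6, a membrane fusion protein, fell by 0.48, and with the length trend removed it did not pass (limma adjusted p 0.0632). VPS30, VPS34 and VPS15, the partners of ATG14 and ATG38, did not pass (log2 fold changes -0.07, 0.06 and -0.04), and each fell with the length trend removed (-0.301, -0.283 and -0.426). Fewer genes of the list rose without manganese-adapted replicate 1, a fit for which no share of all tested features was taken.

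Of 7 genes of the vacuolar cargo and enzymes, 2 rose and 2 fell, 28.6% in each direction, where 33.6% of all tested features rose and 34.9% fell. PRB1, the vacuolar proteinase B, had 2491 and 2264 CPM in manganese-adapted libraries, against 1052 and 1058 CPM in control libraries (log2 fold change 1.17, limma adjusted p 2.37e-05). AMS1, the alpha-mannosidase carried by Atg19 and Atg34, rose by 0.63 (0.264 with the length trend removed). APE1, the aminopeptidase carried by Atg19, fell by 0.73 and APE4, another cargo, had a log2 fold change of -0.29 (-0.472 with the length trend removed). Fewer of these genes fell without manganese-adapted replicate 2, a fit for which no share of all tested features was taken.

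Of 22 genes of TORC1 and its regulators, 8 rose and 6 fell, which is 36.4% and 27.3%, where 33.6% of all tested features rose and 34.9% fell. SCH9, the kinase downstream of TORC1, rose by 0.94 and TOR2, a TOR kinase, by 0.67, and with the length trend removed by 0.608 and 0.300. SLM4 of the complex that anchors TORC1 at the vacuole had a log2 fold change of -0.75 (-0.399 with the length trend removed), and NPR2, a subunit of its inhibitor, fell by 0.60. TOR1 had 135 and 130 CPM in manganese-adapted libraries, against 146 and 135 CPM in control libraries, and did not pass (limma adjusted p 0.373), though with the length trend removed it passed as lower (-0.459, adjusted p 0.000758). Fewer of these genes rose without manganese-adapted replicate 1, and no share of all tested features was taken for that fit. With the length trend removed 4 rose and 11 fell, where 28.1% of all tested features then rose and 38.0% fell.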

How the data were processed

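RNA-seq libraries of 4 yeast samples, 2 manganese-adapted and 2 control by their adaptation status, were analysed from 1 deposited table. The authors' per-sample values are CPM; the column heads call them counts, but 100% of the deposited values equal whole reads after rescaling (tolerance 0.001 reads), so reads were recovered. Build sacCer3 and the tools TopHat2 2.0.13, Bowtie, cutadapt 1.8.1, edgeR and HTSeq are listed per the submitters' processing notes. Their roles, the annotation and any use of strand are not stated there. The authors' deposited log2 fold change and p-value columns were used only where named.

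The test was limma-trend (limma 3.58.1, R 4.3.3) on log2(CPM + 1), for features reaching 1 CPM in 2 samples, with no covariate, 2 residual degrees of freedom and Benjamini-Hochberg adjustment at 0.05 over 6296 features. This scale understates the change of low genes. Errors are SDs over 2 samples or limma's SE. On simulated reads of this comparison (6234 genes tested) 88% of the 1.5-fold changes and 100% of the 2-fold changes were recovered, with 7 false calls. The simulation changed 50 genes at each fold size, used a common dispersion for all genes and held no trend with coding length. In the real data 68.5% of features were called, so these figures give no error rate for those calls. edgeR 4.0.16 and DESeq2 1.42.0 on recovered reads were alternatives, as were other pseudocounts, filters and scalings, each library left out, a replicate block and removal of a loess trend on coding length.

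All 34 members matched R64 by locus tag; coding lengths, coordinates and bases come from that RefSeq assembly, the sequence of sacCer3. Members and lists were chosen with earlier results of these data known. Every library's value is given for ATG1, ATG8, ATG9 and each called member with an absolute log2 fold change of at least 0.5, and up to 4 genes of each related list are named by size of change; other genes named from the lists, and the gene pairs, were chosen after their values were seen.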

Additional observations from a re-analysis of the deposited data

How the results depend on the processing

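The count of members that rose was 12 to 16 and of those that fell 2 to 5 over all alternatives, against 15 and 5. Removing the coding length trend left 2 lower, and for the list of TORC1 and its regulators 4 higher and 11 lower, against 8 and 6; that alternative subtracts more from long genes by construction. Over libraries left out (the spread then comes from the other group's pair alone), the members' median log2 fold change ran from 0.041 to 0.194 (0.116 with all libraries). Over the same libraries left out, autophagy factors with another symbol had 1 to 6 higher (5 with all libraries), TORC1 and its regulators 4 to 7 higher (8), cargo and enzymes 1 to 2 lower (2), and regulators of ATG genes 2 to 4 lower (4); the lowest came without manganese-adapted replicate 1 for the first pair of lists and without manganese-adapted replicate 2 for the others. Of 543 values of single members under an alternative, 514 kept their side of the threshold, 22 lost a call, 6 gained one and 1 reversed (ATG41 at 0.054 with the length trend removed); the cause was not tested. The block on replicate number gave 14 higher and 4 lower, losing ATG19 (adjusted p 0.0587) and ATG27 (0.051). Whether same-numbered libraries share a culture or preparation is not stated, and their deviations correlated at -0.179; the crossed pairing, chosen after seeing the data, gave 16 higher and 5 lower. Depth limits mainly ATG16 and ATG10, with 72 to 215 reads a library.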
